A study of Homo sapiens with 2 samples.

Results

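The BCL2 family sets the threshold at which the mitochondrial outer membrane is opened during apoptosis, and 10 of its genes were chosen by name from the deposited gene counts, out of 60671 genes listed. The anti-apoptotic genes were BCL2, BCL2L1 (BCL-XL) and MCL1. The BH3-only genes were BCL2L11 (BIM), BBC3 (PUMA), PMAIP1 (NOXA), BID and BIK. The effector genes were BAX and BAK1. No measured value entered the choice, although earlier results from these libraries were known when it was made. All 10 genes were found, and all 10 had at least the 10 counts over both libraries that were asked of a gene before a ratio was given.

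The cells were C4-2B, an established human line of castration-resistant prostate cancer (CRPC), grown with serum, and 1 library was made for each of 2 conditions. One culture received vehicle, and the other received (R)-9b, a small-molecule inhibitor of the kinase ACK1 (TNK2), which the sample labels give as 1 µM overnight. The labels do not name the vehicle. Poly-A RNA was sequenced as read pairs. With 1 library per condition the spread between cultures was not measured, so no test between conditions was made, and every interval below measures the error of counting alone (reads copied from one molecule by PCR were not separated).

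Proteins of this family share short regions of homology. The anti-apoptotic proteins hold the effectors BAX and BAK1 in check, and the BH3-only proteins are sensors that bind the anti-apoptotic proteins through their BH3 helix or activate the effectors directly. Once active, BAX and BAK1 form pores that let cytochrome c out of the mitochondrion. Several of these genes are controlled by transcription, PMAIP1, BBC3 and BCL2L11 being among those induced in the integrated stress response, whereas MCL1 and BID are known for regulation of the protein.

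The BH3 segment is the feature that every member shares and through which the 2 sides meet, so its coding sequence is shown for all 10 genes. Each line is 42 bases, 5′ to 3′ on the coding strand, from the GENCODE 29 transcript with the most estimated counts (for BAX, transcript BAX-202). Capitals mark the codons of the conserved leucine and of the aspartate 5 residues after it. Each of the 10 proteins held exactly 1 match to leucine, 3 residues of any kind, glycine or alanine, and aspartate.
BCL2: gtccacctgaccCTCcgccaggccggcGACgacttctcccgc
BCL2L1: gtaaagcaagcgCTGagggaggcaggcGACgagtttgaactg
MCL1: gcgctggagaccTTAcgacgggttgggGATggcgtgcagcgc
BCL2L11: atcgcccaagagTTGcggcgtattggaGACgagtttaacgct
BBC3: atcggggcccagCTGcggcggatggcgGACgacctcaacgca
PMAIP1: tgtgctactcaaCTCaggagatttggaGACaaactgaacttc
BID: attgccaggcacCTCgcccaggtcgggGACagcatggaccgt
BIK: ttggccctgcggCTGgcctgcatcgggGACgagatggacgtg
BAX: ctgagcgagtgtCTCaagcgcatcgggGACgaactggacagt
BAK1: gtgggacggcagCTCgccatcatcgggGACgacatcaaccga

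In GRCh38 coordinates these exonic stretches lie at chr18:63318349-63318390 on the minus strand for BCL2, chr20:31721922-31721963 (minus) for BCL2L1, chr1:150578865-150578906 (minus) for MCL1, chr2:111150091-111150132 (plus) for BCL2L11, chr19:47226579-47226620 (minus) for BBC3, chr18:59902661-59902702 (plus) for PMAIP1, chr22:17739415-17739456 (minus) for BID, chr22:43127704-43127745 (plus) for BIK, chr19:48955775-48955816 (plus) for BAX and chr6:33575387-33575428 (minus) for BAK1. The length of the encoded protein ranged from 54 residues in PMAIP1 to 350 in MCL1. The BH3 leucine was residue 29 in PMAIP1 and residue 213 in MCL1.

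The vehicle library held 65207444 counts and the (R)-9b library 57653965 counts. Counts were scaled by the TMM method, and 23446 genes were compared. Mitochondrially encoded genes took 1.49% of the counts in vehicle and 9.54% in (R)-9b, and scaling by total counts alone lowers every log2 ratio by 0.06. Among genes with 1 to 20 counts, 72.2% in vehicle and 70.3% in (R)-9b were even numbers, as when both mates of a pair are counted, so intervals from halved counts were also computed. The labels call the cells breast cancer, whereas the study calls C4-2B cells CRPC cells. All 8 prostate markers were detected, and their summed level in CPM was 5036 in vehicle and 9418 in (R)-9b. The 6 breast markers summed to 3.02 and 12.0 CPM, with SCGB2A2 and ANKRD30A at 0 in both libraries and ESR1 at 2 counts in each. Most of the breast marker sum was PIP, with 124 counts in vehicle and 595 in (R)-9b (95% interval of the log2 ratio 2.22 to 2.79), while TFF1 had 41 and 73 counts and SCGB1D2 had 34 and 8. The 9 immune and stromal markers summed to 31.2 and 46.9 CPM, with PTPRC at 0 in both libraries. Single genes of this list moved in opposite directions, COL1A1 with 1114 counts in vehicle and 2004 in (R)-9b (log2 ratio 1.08) and VWF with 769 and 411 (log2 ratio -0.67). The part of these differences in the ratios below was not tested. In bulk RNA, fewer cells of a kind and less RNA per cell cannot be told apart.

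By level per kb of exon, MCL1 and BCL2L1 ranked highest of the members in both libraries, and BCL2 ranked lowest. Levels were compared between genes as TMM-scaled CPM per kb of exon. Exon length was that of all annotated exons of a gene merged, and single forms can be shorter. For BAX it was 2587 bases, whereas the coding form BAX-205 has 687. The counting intervals include no error of length, so the order below holds for merged lengths only. In CPM without division by length, MCL1, BCL2L1 and BCL2 kept these places. MCL1 had a level of 30.7 in vehicle and 32.1 in (R)-9b. BCL2L1 had a level of 23.6 in vehicle and 22.5 in (R)-9b. BCL2 had a level of 0.177 in vehicle and 0.217 in (R)-9b. In vehicle the order was MCL1, BCL2L1, BAX, BIK, BAK1, PMAIP1, BBC3, BID, BCL2L11 and BCL2, and the counting intervals of neighbours overlapped for PMAIP1 and BBC3, for BBC3 and BID, and for BID and BCL2L11. In (R)-9b the order was MCL1, BCL2L1, BIK, BAK1, BAX, BID, BCL2L11, PMAIP1, BBC3 and BCL2, with every neighbouring pair of intervals apart. MCL1, BCL2L1 and BCL2 kept their places, and each of the other genes changed place. At the merged lengths BAX went from above BIK and BAK1 to below both. In CPM without division by length, BAX exceeded BIK in both libraries (36.2 against 11.2 in vehicle, 24.7 against 16.8 in (R)-9b). PMAIP1 and BBC3 went from above BCL2L11 to below it at the merged lengths. In CPM both were below BCL2L11 in both libraries. In vehicle the intervals of PMAIP1 and BBC3 both overlapped that of BID, so their order against BID was resolved only in (R)-9b, where both were below it.

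**Figure D1:**
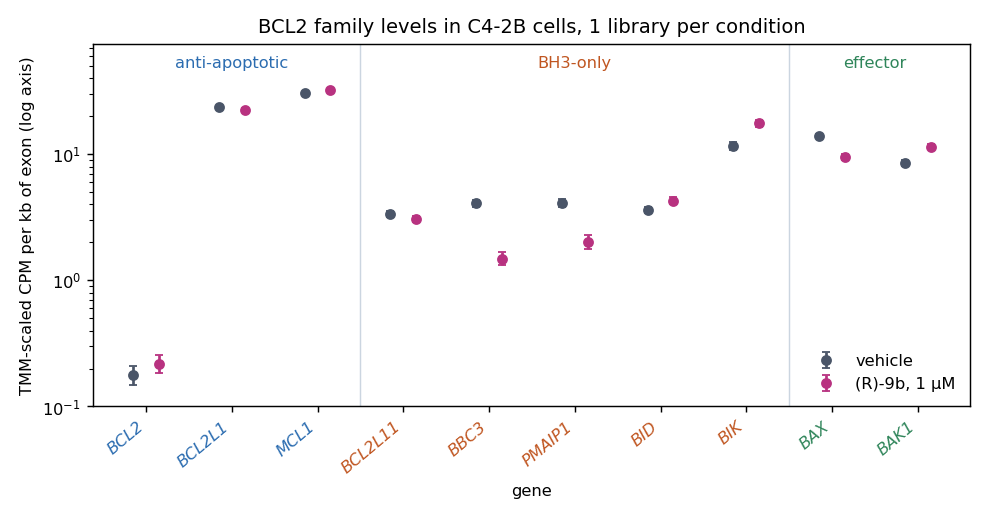
Level of each of the 10 genes in TMM-scaled CPM per kb of exon (log axis) in the vehicle and (R)-9b libraries, grouped by class, with bars for 95% counting intervals and 1 library per condition. The points of MCL1 and of BCL2L1 nearly coincide between the libraries, BBC3, PMAIP1 and BAX are lower in (R)-9b, and BIK and BAK1 are higher.

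Of the 10 genes, 4 had a ratio of (R)-9b to vehicle whose 95% interval lay above 0 on the log2 scale, where 29.8% of all tested genes did. The interval lay below 0 for 5, where 31.1% of all tested genes did, and included 0 for BCL2. None of the 10 lay wholly beyond 2-fold higher, against 4.20% of tested genes, and 1, BBC3, lay wholly beyond 2-fold lower, against 3.44%. With so many genes moving between these libraries, the shares of the members were read as near the background. Of the 13117 genes with at least the 283 counts of the least counted member, 36.2% lay above 0 and 42.5% below. Both directions occurred within the BH3-only genes and within the effectors. When each library was also allowed a coefficient of variation of 0.1, an alternative chosen after the data had been seen, BIK and BAK1 stayed above 0 and BBC3, PMAIP1 and BAX below it.

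**Figure D2:**
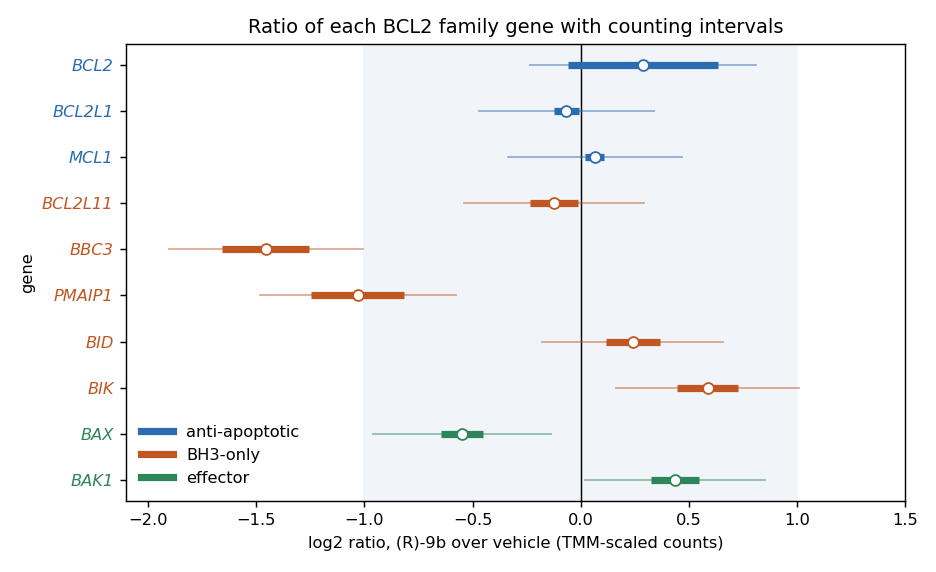
Log2 ratio of (R)-9b over vehicle (TMM-scaled counts) for each gene, with thick bars for the 95% counting interval, thin bars for the interval that also allows each library a coefficient of variation of 0.1, and grey shading within 2-fold. BBC3 alone has a thick bar wholly beyond 2-fold lower, at -1.45, and MCL1 and BCL2L1 sit near 0.

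Among the anti-apoptotic genes, MCL1 and BCL2L1 had the log2 ratios closest to 0 of all 10 members, and the class median was 0.07 against -0.005 over all tested genes. MCL1, a short-lived guardian that binds NOXA and BIM, had 8933 counts in vehicle and 7927 in (R)-9b, and after scaling its log2 ratio was 0.07 (95% interval 0.02 to 0.11). Under total scaling this value was 0.01, with an interval that included 0. BCL2L1 encodes BCL-XL, the main guardian of many epithelial cells. It had 5198 and 4209 counts, and its log2 ratio was -0.07 (95% interval -0.13 to -0.01). Halved counts widened this interval to -0.15 to 0.02. BCL2, the founding member of the family and the target of venetoclax, had 139 and 144 counts, and its log2 ratio of 0.29 had an interval from -0.06 to 0.64. No difference in BCL2 was resolved, since this interval includes 0.

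The 5 BH3-only genes spread over the widest range, with a median log2 ratio of -0.12. BBC3 encodes PUMA, which binds all of the anti-apoptotic proteins. It had 863 counts in vehicle and 267 in (R)-9b. The ratio was 0.365, a log2 ratio of -1.45 (95% interval -1.66 to -1.26), and 5.28% of tested genes had a lower ratio. PMAIP1 encodes NOXA, which binds chiefly MCL1 and marks it for degradation. It had 612 counts in vehicle and 254 in (R)-9b, a ratio of 0.489 and a log2 ratio of -1.03 (95% interval -1.25 to -0.82). Both of these transcriptionally controlled sensors were thus lower in the (R)-9b library.

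BIK, an endoplasmic reticulum BH3-only protein, moved the other way, with 744 counts in vehicle and 947 in (R)-9b and a log2 ratio of 0.59 (95% interval 0.45 to 0.73). Its ratio exceeded that of 79.8% of tested genes, the highest place among the members. BID links death receptors to mitochondria once caspase-8 cleaves it. Its counts were 1073 and 1075, which the smaller (R)-9b library turned into a log2 ratio of 0.24 (95% interval 0.12 to 0.36). BCL2L11 had 1486 and 1156 counts and a log2 ratio of -0.12 (95% interval -0.24 to -0.01), and with halved counts this interval widened to -0.28 to 0.03. BCL2L11 shares 727 exonic bases, 10.9% of its exons, with the opposite-strand gene MIR4435-2HG, which had 235 and 114 counts. Reads of such overlaps could be assigned to either gene only if the counting used strand, which is not given in the sources used here.

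The 2 effectors went in opposite directions. BAX, which waits in the cytosol and moves to mitochondria when activated, had 2411 counts in vehicle and 1397 in (R)-9b. Its ratio was 0.683, a log2 ratio of -0.55 (95% interval -0.65 to -0.45). BAK1, which resides in the outer membrane and is held there by MCL1 and BCL-XL, had 1256 and 1440 counts, a ratio of 1.35 and a log2 ratio of 0.44 (95% interval 0.32 to 0.55). In level per kb of merged exon, BAX exceeded BAK1 in vehicle (14.0 against 8.53) and was below it in (R)-9b (9.56 against 11.5). The merged length of BAX was 2587 bases, against 687 for the form BAX-205. That of BAK1 was 2212 bases, against 2136 for BAK1-202. Which of the 2 genes was higher in (R)-9b therefore depends on the length used. At the merged lengths the sum of both effectors was 22.5 in vehicle and 21.1 in (R)-9b.

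Summed per class at the merged exon lengths, the levels per kb differed little between the libraries, and changes inside a class ran against each other. These sums and shares depend on the length taken for each gene, BAX among them. The anti-apoptotic genes summed to 54.4 CPM per kb in vehicle and 54.8 in (R)-9b, which was 52.4% and 52.5% of the level of all 10 genes. The BH3-only genes summed to 26.9 and 28.5, or 25.9% and 27.3%. In that sum per kb the higher BIK outweighed the lower BBC3 and PMAIP1. In TMM-scaled CPM without division by exon length, the BH3-only sum went the other way, with 71.8 in vehicle and 65.5 in (R)-9b. In the same unit the effector sum was 55.1 in vehicle and 50.2 in (R)-9b, and the anti-apoptotic sum 214 and 217.

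The balance of each anti-apoptotic gene against each BH3-only or effector gene does not depend on how the libraries are scaled. Of the 21 such pairs, the number of anti-apoptotic counts per partner count was higher in (R)-9b for 11, lower for 6, and had an interval of the change that included 0 for 4. Halved counts left 10 higher and 5 lower. The pairs share genes and are not independent of each other. No such tally was made for pairs of other genes, so these numbers have no background. Since MCL1 and BCL2L1 had log2 ratios near 0, their changes largely restate the ratios of the partners. MCL1 had 10.4 counts for each BBC3 count in vehicle and 29.7 in (R)-9b, a change of 2.87-fold (log2 change 1.52, 95% interval 1.32 to 1.72). Against PMAIP1, its selective partner, MCL1 went from 14.6 to 31.2 counts per count (log2 change 1.10, 95% interval 0.88 to 1.31). Against BAX it went from 3.71 to 5.67.

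Against BIK and BAK1 the change ran the other way for MCL1 and BCL2L1. MCL1 had 12.0 counts per BIK count in vehicle and 8.37 in (R)-9b (log2 change -0.52, 95% interval -0.67 to -0.38). Per BAK1 count MCL1 had 7.11 and 5.505 counts (log2 change -0.37). BCL2L1 had 6.99 counts per BIK count in vehicle and 4.44 in (R)-9b (log2 change -0.65, 95% interval -0.80 to -0.50), and 4.14 and 2.92 per BAK1 count. Against BCL2L11 the change for BCL2L1 was 0.06, with an interval from -0.07 to 0.18.

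**Figure D3:**
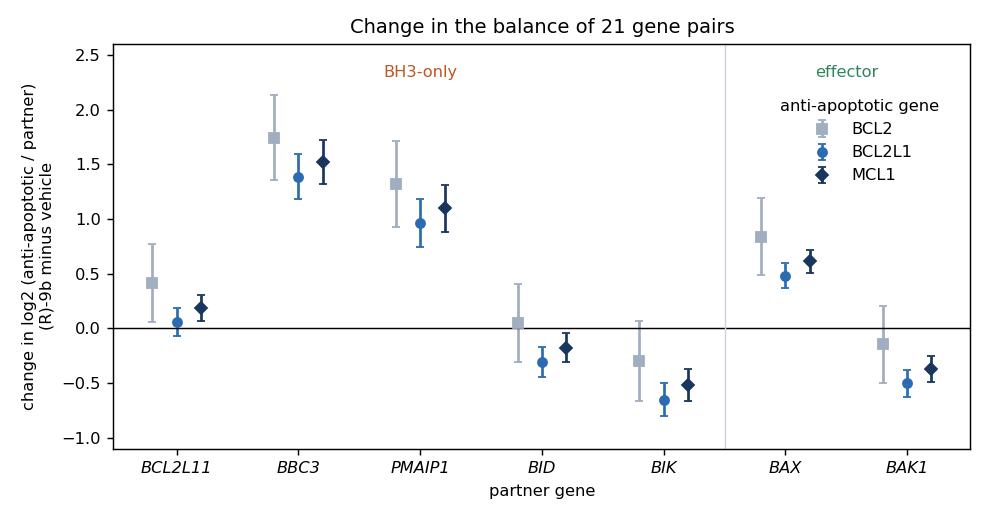
Change, (R)-9b minus vehicle, in the log2 ratio of each anti-apoptotic gene's counts to each partner gene's counts, with bars for 95% counting intervals over the 2 libraries. All 3 anti-apoptotic genes lie above 0 against BBC3, PMAIP1 and BAX, and MCL1 and BCL2L1 lie below 0 against BID, BIK and BAK1.

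The transcript table gave estimated counts for the forms of each gene, and shares within a gene do not depend on scaling. Their intervals were computed from the estimated counts as if these were counts, so the error of assigning reads to transcripts is not in them. For BCL2L1, the main form BCL2L1-201 held 71.9% of the estimated counts in vehicle and 86.0% in (R)-9b. BCL2L1-203 held 16.97% in vehicle (95% interval 15.7 to 18.3) and 2.699% in (R)-9b (95% interval 2.10 to 3.41), that is, 518 and 67.8 estimated counts. Both forms encode the same 233 residues and differ before the start codon. BCL2L1-202, which encodes the 170-residue pro-apoptotic BCL-XS, held 3.65% and 3.96%, with overlapping intervals. BCL2L1 also shares 1424 exonic bases, 43.0% of its exons, with the opposite-strand gene ABALON, which had 14 and 26 counts.

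The forms of BCL2L11 shifted as well. BCL2L11-206, which encodes the 198-residue BIM-EL, held 64.9% of the gene's estimated counts in vehicle (95% interval 61.2 to 68.4) and 45.8% in (R)-9b (95% interval 41.6 to 50.1). BCL2L11-220, which encodes 109 residues, held 15.6% in vehicle (95% interval 12.99 to 18.5) and 32.9% in (R)-9b (95% interval 28.99 to 37.0). The share in forms whose coding sequence contains the BH3 pattern was 88.2% and 86.4%, with overlapping intervals.

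MCL1 was mostly the full-length form. MCL1-202, which encodes 350 residues, held 96.3% of the estimated counts in vehicle and 94.0% in (R)-9b. MCL1-204, with 197 residues, held 2.84% (95% interval 2.31 to 3.45) and 5.46% (95% interval 4.67 to 6.33). MCL1-201, the 271-residue form known as MCL1S, had 23.4 and 5.75 estimated counts. For BID, the 195-residue forms BID-211 and BID-208 held 40.6% and 12.1% in vehicle and 43.9% and 16.7% in (R)-9b. The 99-residue form BID-204, whose coding sequence lacks the BH3 pattern, held 30.9% (95% interval 26.3 to 35.8) and 17.0% (95% interval 13.4 to 21.1), whereas BID-210, also of 99 residues, held 4.26% and 10.3%. In sum, BH3-containing forms made up 52.8% of BID in vehicle (95% interval 47.6 to 57.9) and 60.6% in (R)-9b (95% interval 55.6 to 65.5).

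Each of the 3 BBC3 forms with at least 10 estimated counts over both libraries was lower in (R)-9b, with an interval of the ratio below 0. BBC3-203, which encodes 193 residues, had 231 estimated counts in vehicle and 76.1 in (R)-9b, BBC3-202 had 28.6 and 3.59, and BBC3-204 had 21.5 and 5.77. PMAIP1-202, the 54-residue NOXA form, had 271 and 115. BIK-201 had 260 and 343, and BAK1-202 had 624 and 760. The transcripts of BAX used here summed to 81.8 and 98.6 estimated counts, only 6.78% and 14.1% of the gene counts taken as pairs. The forms BAX-201 and BAX-202 were not among the transcript rows used. BAX was therefore described from its gene counts alone.

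**Figure D4:**
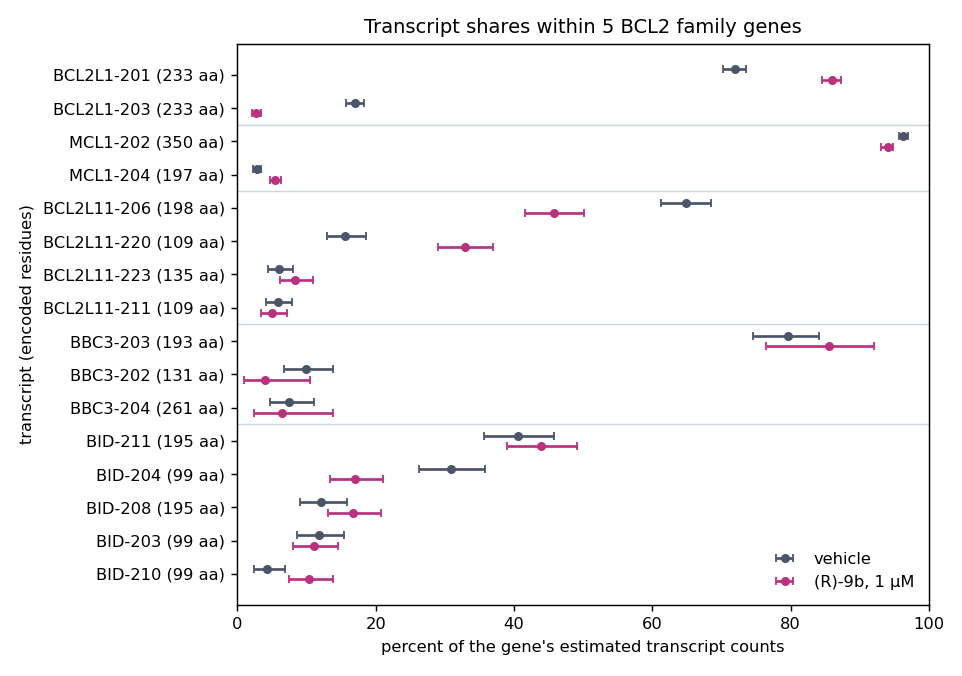
Share of each gene's estimated transcript counts (percent) held by transcripts that reached 5% in either library, for 5 genes, with bars for 95% counting intervals and the encoded residues (aa) in brackets. BCL2L1-203, BCL2L11-206 and BID-204 hold smaller shares in (R)-9b, and BCL2L1-201, BCL2L11-220 and BID-210 larger ones.

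Promoters of 300 bases, from 250 before to 50 after the start site, were listed by RefSeq (GRCh38.p14) for 8 of the 10 genes, in 13 entries, and were searched on both strands. Of the members lower in (R)-9b, PMAIP1 and BAX are shown as examples, chosen after their sequences had been seen. Motifs of the searched set also occur in other members, both lower and higher ones. In PMAIP1 (chr18:59899746-59900045, plus strand) capitals mark the motif TGACG, here on the opposite strand, which is the first part of the cyclic AMP response element TGACGTCA. In BAX (chr19:48954625-48954924, plus strand) capitals mark the E-box CACGTG, which reads the same on both strands.
PMAIP1: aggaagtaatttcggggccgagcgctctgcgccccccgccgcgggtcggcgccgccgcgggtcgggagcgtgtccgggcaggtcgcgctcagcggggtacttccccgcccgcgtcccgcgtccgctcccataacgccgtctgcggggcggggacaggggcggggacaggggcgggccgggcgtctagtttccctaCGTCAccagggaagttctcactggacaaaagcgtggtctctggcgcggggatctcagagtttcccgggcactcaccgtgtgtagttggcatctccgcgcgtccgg
BAX: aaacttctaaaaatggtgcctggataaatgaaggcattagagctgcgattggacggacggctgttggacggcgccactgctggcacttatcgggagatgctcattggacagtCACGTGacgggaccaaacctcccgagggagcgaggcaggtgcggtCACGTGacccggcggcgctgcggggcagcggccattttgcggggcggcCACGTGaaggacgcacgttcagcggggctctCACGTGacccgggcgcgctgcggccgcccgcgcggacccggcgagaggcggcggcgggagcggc

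The BAX promoter held 4 copies of CACGTG, at -138, -93, -45 and -14 from the start site. At least 1 copy was present in 7.26% of the 35116 promoters, and 4 or more in 5 of them, and this count was made after the BAX sequence had been seen. BBC3 held 1 copy at -232, and of the 5 BID entries 2 held 1. TGACG occurred in 24.6% of all promoters and in those of PMAIP1 (-55), BCL2 (-225), BAX (-134, overlapping an E-box) and 1 of the 2 entries of BCL2L1 (-201). TGACGTCA occurred in 1.85% of promoters and in no member. The composite stress element TGATGNAA occurred in 3.62% and in no member. HRK, a family gene outside the members that was also searched, held TGATGNAA at -75 and TGACG at -16. The GC box GGGCGG occurred in 44.95% of promoters, and 9.06% held 4 or more copies. PMAIP1 and 2 of the 5 BID entries held 4 copies, and other members held fewer. A match describes these letters only and does not show binding. The main BBC3 form, BBC3-203, starts outside the listed BBC3 window.

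The rest of the family was described from 14 further genes, of which 11 passed the minimum, 5 with an interval above 0 and 5 below. Over all tested genes, 29.8% were above 0 and 31.1% below. HRK, a BH3-only gene known from neurons, had 172 counts in vehicle and 8 in (R)-9b, a log2 ratio of -4.19 (95% interval -5.42 to -3.18). The other BH3-only genes were higher, BMF with 660 and 776 counts (log2 ratio 0.47) and BAD with 1346 and 1340 counts (log2 ratio 0.23). BCL2L2, the anti-apoptotic BCL-W, had a log2 ratio of -0.01 with an interval from -0.08 to 0.07. BOK, an effector-like protein, had 5438 and 5791 counts (log2 ratio 0.33).

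BNIP3 and BNIP3L, mitophagy receptors known as hypoxia-induced genes, were among the 4 further genes wholly beyond 2-fold lower, besides HRK and BCL2L14. Over all tested genes, 3.44% were. BNIP3 had 41575 counts in vehicle and 10965 in (R)-9b (log2 ratio -1.69), and BNIP3L had 14144 and 3967 (log2 ratio -1.60). BCL2L14 had 331 and 77 counts (log2 ratio -1.87). BCL2L13, a mitochondrial outer membrane protein, had a log2 ratio of -0.32, BCL2L12 one of 0.37, and BECN1, an autophagy protein with a BH3 segment, one of 0.19. BCL2A1, BCL2L10 and BCL2L15 were under the minimum, with 8, 0 and 6 counts over both libraries.

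Downstream of the outer membrane, 5 of 13 apoptosome and caspase genes had an interval above 0 and 4 below, and none lay wholly beyond 2-fold. The background for this list, the inhibitors and the death receptor arm is 29.8% of all tested genes above 0 and 31.1% below. DFFB, the nuclease that cuts DNA in apoptosis, was highest by the end of its interval nearest 0 (618 and 847 counts, log2 ratio 0.69). Of 5 tested inhibitors of apoptosis, 2 were above 0 and 3 below, with BIRC3 (cIAP2) at 540 and 880 counts (log2 ratio 0.94) and BIRC6 at 5794 and 3468 counts (log2 ratio -0.50). In the death receptor arm 4 of 10 genes were above 0 and 5 below. By the end of the interval nearest 0, CASP10 was highest (log2 ratio 0.46) and TNFRSF10B, a receptor of TRAIL, was lowest (log2 ratio -0.38), whereas FAS had the lowest log2 ratio itself, -0.50 (95% interval -0.76 to -0.24). Of the outer membrane channels, VDAC1 had a log2 ratio of 0.14 and VDAC2 one of -0.09.

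Among 12 tested transcription regulators of the family, 9 had an interval below 0 and 1 above, where 31.1% and 29.8% of all tested genes did. The one above was E2F1 (log2 ratio 0.18). DDIT3 (CHOP), an effector of the integrated stress response, had 17941 counts in vehicle and 737 in (R)-9b, a log2 ratio of -4.37 (95% interval -4.48 to -4.26). ATF4, the regulator upstream of it, had 73113 and 27486 counts (log2 ratio -1.17). ATF3 and JUN were the other genes of this list wholly beyond 2-fold lower, with log2 ratios of -3.55 and -1.75. The median of this list was -0.51, against -0.005 over all tested genes. The list was chosen with earlier results of these data known, so its median and counts describe the chosen genes only. These ratios of transcript amounts were not linked to those of BBC3, PMAIP1 and BAX by any test. Of 6 genes that govern the stability of MCL1 and its partners, 3 had an interval below 0 and none above, against the same shares over all tested genes. The lowest was HUWE1 (MULE), a ubiquitin ligase of MCL1 (31855 and 18498 counts, log2 ratio -0.55).

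**Figure D5:**
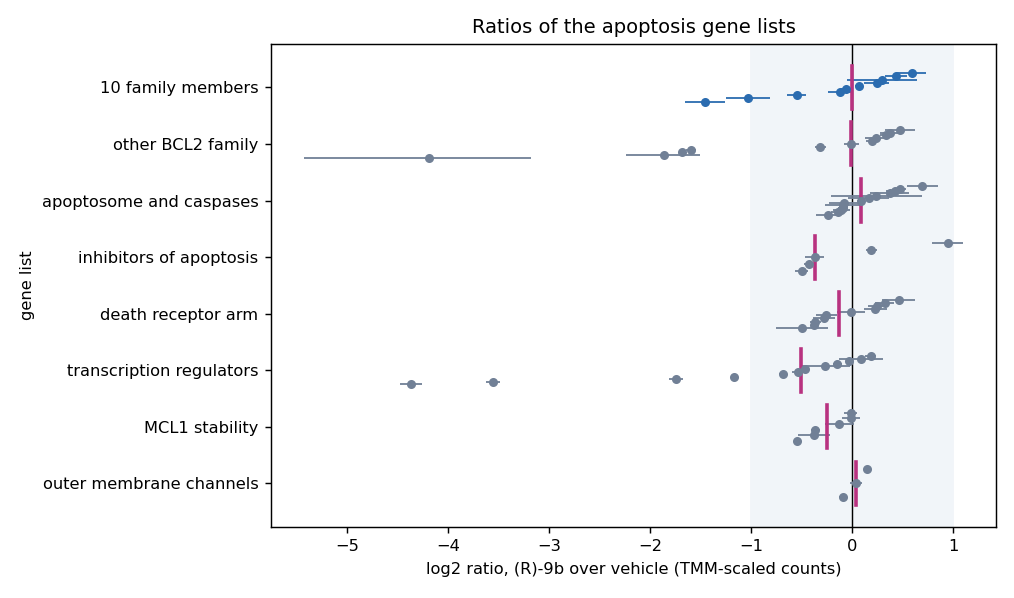
Log2 ratio of (R)-9b over vehicle for the tested genes of each list, with bars for 95% counting intervals, pink lines for list medians and grey shading within 2-fold. The transcription regulators have the lowest median, -0.51, and values beyond 2-fold occur on the lower side, in the family and in the regulators. The lists were chosen with earlier results of these data known.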

How the data were processed

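C4-2B cells were profiled by RNA sequencing with 1 library for vehicle and 1 for (R)-9b, and conditions were taken from the sample labels. The authors deposited gene counts of uniquely aligned unambiguous reads, without normalization. The methods name STAR with an Ensembl annotation, and the submitters' processing notes list STAR 2.5.1a, featureCounts 1.4.6-p5 and Salmon 0.8.2 on hg38. The authors also deposited CPM and moderated log2 CPM per gene, and estimated counts per transcript (175045 transcripts, summing to 21829532.5 in vehicle and 19176869.7 in (R)-9b). The labels and the methods differ in the amount of RNA used.

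Repeated lines were dropped. TMM factors from edgeR 4.0.16 (R 4.3.3) were 1.02 for vehicle and 0.979 for (R)-9b. Ratios carry exact 95% intervals (Clopper-Pearson, conditional on the summed counts of the gene), from scipy 1.17.1 and pandas 2.3.3. The minimum was 10 counts per gene, summed over the libraries. A gene was counted as above or below 0, or beyond 2-fold, when its whole interval was. The scripts were checked on simulated counts. Exon lengths and positions came from GENCODE 29 (GRCh38), and promoters from RefSeq. Figures were drawn with matplotlib 3.10.9.

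The members and the gene lists were chosen with earlier results of these data known. All members, the other family genes past the minimum, the highest and lowest gene of each list by the interval end nearest 0, and the regulators DDIT3 and ATF4 were named by rule, except that some genes the rule covers are not reported here; BAX-202, ATF3, JUN, FAS, single markers, the channel genes and the shown promoters were chosen after values or sequences were seen. Alternatives covered scaling, deposited values, minimum counts, the fold, halved counts and estimated transcript counts.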

Additional observations from a re-analysis of the deposited data

How the results depend on the processing

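Over 9 alternatives that gave a value per gene, the sign of the log2 ratio was kept by each of the 10 genes except BAX, which changed to 0.52 with estimated transcript counts. By construction that value rests on the small part of BAX described above, and it moved the effector median to 0.52. The interval of BBC3, PMAIP1, BID, BIK and BAK1 stayed on its side of 0 under all 7 alternatives that gave an interval, whereas MCL1 kept its side in 5, BCL2L1 in 4 and BCL2L11 in 4. The log2 ratio of BBC3 ranged from -1.51 to -1.42 and that of PMAIP1 from -1.09 to -0.97. The number of members below 0 was 3 with upper quartile scaling, 2 with transcript counts, 3 with halved counts and 3 with the added coefficient of variation, which also left 2 above 0. With a fold of 1.5 in place of 2, 2 members were beyond it.

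Over all genes, 6977 lay above 0 and 7293 below, 985 beyond 2-fold higher and 807 lower. With transcript counts these were 4598, 4694, 513 and 520, and with the added coefficient of variation 4018, 3728, 620 and 494. Halved counts gave 609 beyond 2-fold higher and 535 lower, protein-coding genes alone gave 532 and 532, and the fold of 1.5 gave 2042 and 1814. A minimum of 50 counts gave 638 higher. Where fewer genes or smaller counts entered, the construction lowers the number, and otherwise the cause was not tested. With 1 library per condition, replicates could not be left out. No paired analysis was possible because there was 1 library per condition and no test. Of the 10 genes, BCL2 had the fewest counts, 283 over both libraries, and the widest interval.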
